A study of Homo sapiens with 4 samples.

Results

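Described here are 9 enzymes that make serine and pass its carbon to folate, as measured in a human colon carcinoma line grown flat or as spheroids. The serine synthesis enzymes are PHGDH, PSAT1 and PSPH. The cytosolic folate enzymes are SHMT1 and MTHFD1, and the mitochondrial ones are SHMT2, MTHFD2, MTHFD1L and ALDH1L2. Members were chosen by symbol, as every probe set annotated to 1 of these symbols and to no other, which gave 20 of 54675 probe sets for 9 of 19775 named genes. Of the 9 genes, 7 had a probe set bright enough to be tested. MTHFD1L and ALDH1L2 did not.

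The data are 4 Affymetrix arrays of total RNA from HCT116, 2 micrograms per labelling. The labels name 2 versions of this established line, HCT116 wt and HCT116 wt/GFP, and give no further allele or agent. Each version was grown as a monolayer and as spheroids, cell clusters grown in 3 dimensions, with 1 array for each combination. Each culture condition thus had 2 arrays, 1 from each line, and their number limits the precision of every value. The sources used here do not give how GFP was introduced, whether wt/GFP is a clone, the age and size of the spheroids, or the number of cultures behind an array.

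Serine is made from the glycolytic intermediate 3-phosphoglycerate in 3 steps, and serine hydroxymethyltransferases then move a carbon from it to tetrahydrofolate, leaving glycine. The loaded folate cycle runs in mitochondria and in the cytosol with separate enzymes: mitochondria oxidise the carbon to formate, which leaves for the cytosol and feeds purine, thymidylate and methionine synthesis. Proliferating cancer cells, those of colon included, commonly depend on this route, and amino acid stress is known to raise several of its genes through the transcription factor ATF4.

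In spheroids 5 of the 7 tested members fell, and SHMT1 did not pass the test. The brightest probe set of PSPH rose, while its other 2 were lower in both lines without passing, and its call was lost under 2 other scalings. PSAT1, the transaminase of serine synthesis, had the largest change of the 7, 2.45-fold lower. The other 4 that fell, PHGDH, MTHFD1, SHMT2 and MTHFD2, were lower by 1.41-fold to 1.61-fold. Without a trend of variance with brightness in limma's moderation, PSAT1 alone of the members was called. The other 5 calls then had adjusted p from 0.0556 to 0.122. In that fit 8.18% of all genes tested were lower and 18.4% higher. Between the tested mitochondrial and cytosolic folate enzymes the mean change differed by -0.08, with a 95% interval of -0.51 to 0.36. Among all 14349 genes tested, 18.5% were called lower and 30.6% higher in spheroids, 49.1% in all, so a call alone sets no gene apart. A call means an adjusted p under 0.05 from limma, and a log2 change is on the log2(signal + pseudocount) scale, where the pseudocount was 14.0.

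The 4 arrays shared a trimmed mean, but the median signal was 48.0 to 48.8 in monolayers and 67.3 to 68.4 in spheroids. The ratio of 3' to 5' probe sets for ACTB was 1.30 to 1.32 in monolayers against 1.73 to 1.76 in spheroids. For GAPDH this ratio was 0.88 to 0.90 in monolayers and 0.87 to 0.95 in spheroids, which overlap. The part of these values in the results below was not tested. Scaling moved the median log2 change of all genes: it was 0.23 as deposited, 0.02 with quantile normalization, -0.17 with arrays centred on their medians and -0.37 with arrays scaled to the bacterial and phage hybridisation controls. Higher genes made up 62.3%, 53.0%, 33.6% and 20.9% of the called genes under these 4 scalings. Epithelial markers were present, with summed signals of 86620 to 104921 in monolayers and 114407 to 115920 in spheroids over 9 genes. EPCAM had signals of 19611 to 29302, whereas the intestinal markers CDX2 and LGALS4 did not exceed 81.6 and 62.5. Of the 9 epithelial markers, 5 were called higher in spheroids and none lower as deposited: KRT20, CDH1, VIL1, KRT19 and EPCAM. KRT20, a keratin of differentiated colon epithelium, went from 112 and 155 to 798 and 832, and CDH1, the adhesion protein E-cadherin, from 916 and 889 to 4493 and 4866, both called under all 4 scalings. VIL1 passed the filter only through its spheroid values, and EPCAM and KRT19 had changes of -0.22 and -0.19 when scaled to the hybridisation controls. KRT8 was called lower with median centring (-0.53) and with the hybridisation controls (-0.73), and KRT18 with the hybridisation controls (-0.45). Of all genes tested, 32.3% were lower with median centring and 26.2% with the hybridisation controls. Markers of immune, stromal and endothelial cells summed to 573 to 574 in monolayers and 2728 to 4249 in spheroids over 10 genes, of which COL1A1 alone made up 2275 and 3780 in spheroids. The highest of the others was PECAM1, at 103 to 189, and PTPRC, CD3D and CD14 had mean log2 values below the brightness filter of 5.48. The part of these markers in the results was not tested.

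PHGDH oxidises 3-phosphoglycerate and commits carbon to serine synthesis. Its probe set had signals of 1254 in wt and 1351 in wt/GFP monolayers, and of 773 and 1088 in spheroids. Both spheroid values lay below both monolayer values, with a smaller gap in wt/GFP. The log2 change was -0.69 in wt and -0.31 in wt/GFP, and -0.50 ± 0.14 (SE) in the fit (95% interval -0.79 to -0.21, adjusted p = 0.00430). The call depended on single arrays, with adjusted p = 0.0546 without the wt monolayer, 0.0939 without the wt spheroid and 0.127 without the wt/GFP monolayer array, in fits that had no cell line term, and the change without the wt spheroid array was -0.26. It was also lost without the trend (adjusted p = 0.122). A brighter probe set, annotated to PHGDH together with MZT2A and MZT2B, had a change of -0.08 (adjusted p = 0.588).

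PSAT1 transfers an amino group from glutamate to 3-phosphohydroxypyruvate, the second step. Its brighter probe set had signals of 11715 and 11265 in wt and wt/GFP monolayers and of 4935 and 4422 in spheroids. The dimmer one went from 2433 and 2033 to 837 and 757. Spheroid signals were 0.421 (wt) and 0.393 (wt/GFP) of the monolayer signal in the brighter probe set and 0.344 and 0.372 in the dimmer one, so the groups lay far apart. The fitted log2 change was -1.30 ± 0.12 for the brighter probe set (95% interval -1.53 to -1.06, adjusted p = 3.57e-10), which is -1.52 relative to the median of all genes, and -1.47 ± 0.14 for the dimmer one. PSAT1 kept its call in all 17 alternatives in which it was tested. It was not tested without probe sets shared between transcripts, because the IDs of both mark them as matching more than 1 transcript. The gene table used here lists 4 pseudogenes of PSAT1, and which transcript fell was not tested.

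PSPH removes the phosphate in the last step, and its 3 probe sets disagreed. The brightest had signals of 2453 and 2637 in monolayers and of 3959 and 3613 in spheroids, so both spheroid values were higher. The second had 2444 and 2574 in monolayers and 2201 and 2329 in spheroids, both lower. The dimmest, with 69.4 and 70.4 against 50.9 and 57.2, was also lower in both lines. The log2 change of the brightest was 0.57 ± 0.12 (adjusted p = 0.000201), which passed, whereas those of the others, -0.15 ± 0.13 (95% interval -0.40 to 0.11) and -0.30 ± 0.45, did not. The ID of the brightest probe set marks it as matching more than 1 transcript, and the gene table used here lists the pseudogene PSPHP1, and which transcript rose was not tested. Its change was 0.18 (adjusted p = 0.228) with median centring, and it turned to -0.02 (adjusted p = 0.970) with the hybridisation controls.

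**Figure D1:**
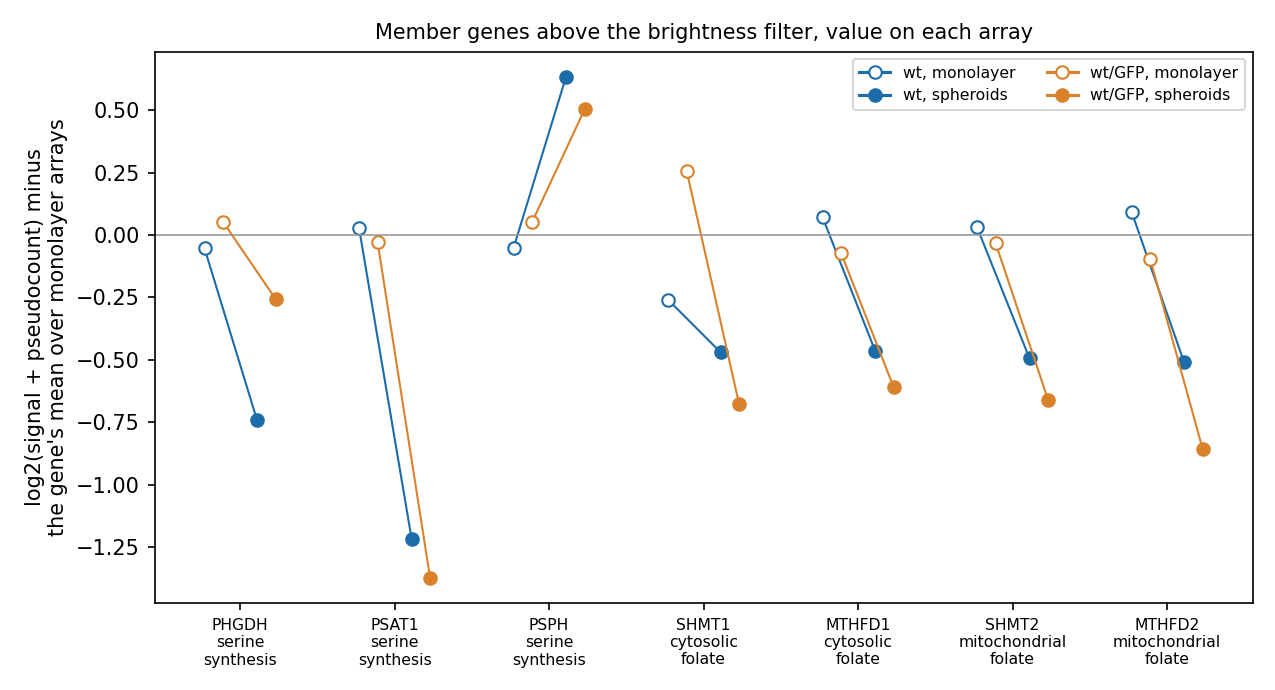
Value of each tested member on each array, as log2(signal + pseudocount) minus the gene's own mean over the 2 monolayer arrays, for the brightest probe set. Open points are monolayers, filled points spheroids, and lines join the arrays of 1 cell line. In 6 of 7 genes both spheroid arrays lie below both monolayer arrays, and in PSPH above them.

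Spheroid and monolayer arrays did not overlap for any of the 7 tested members, with spheroids below in 6 and above in 1. Among all genes tested, 26.5% had both spheroid arrays below and 47.1% above both monolayer arrays.

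For SHMT1, the cytosolic serine hydroxymethyltransferase, the probe sets annotated to it alone were dim. The tested one had signals of 100 and 149 in monolayers and of 84.5 and 71.3 in spheroids. Both spheroid values were lower, but the log2 changes, -0.21 (wt) and -0.94 (wt/GFP), differed between lines by more than its size in the fit, -0.57 ± 0.38 (95% interval -1.35 to 0.20, adjusted p = 0.217). Under the other 3 scalings it passed, with -0.97 (quantile), -0.96 (median) and -1.17 (hybridisation controls). A second probe set lay below the filter, with signals from 4.94 to 40.5. Another 2 probe sets, annotated to SHMT1 together with MIR6778, were brighter and lower in spheroids in both lines. The brighter of these went from 1506 and 1440 to 893 and 1186. The other went from 682 and 530 to 378 and 438. They cannot be named for a single gene.

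MTHFD1 carries 3 activities of the cytosolic folate cycle on a single protein: it interconverts methylene-, methenyl- and formyl-tetrahydrofolate and captures formate. Its bright probe set had signals of 7454 and 6747 in monolayers and of 5141 and 4645 in spheroids. The change was alike in both lines, -0.53 in wt and -0.54 in wt/GFP, and -0.54 ± 0.11 in the fit (adjusted p = 0.000273). A second, dim probe set had signals of 32.7 and 10.5 in monolayers and of 134 and 109 in spheroids, higher in both lines. Its monolayer mean, 5.08 on the log2 scale, lay below the brightness filter of 5.48, so it was tested only through its spheroid values, and its difference is given as a description. The mean of both probe sets, which includes it, had a log2 change of 0.73, opposite in sign to the bright one. That mean was called higher in limma (adjusted p = 0.00398), where 26% of all genes tested were higher.

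SHMT2, the mitochondrial serine hydroxymethyltransferase, had 3 probe sets, and all 3 were called lower. The brightest had signals of 6800 and 6509 in monolayers and of 4718 and 4204 in spheroids, a log2 change of -0.58 ± 0.11 (adjusted p = 0.000119). The next went from 3303 and 2741 to 2292 and 1709, a change of -0.60 ± 0.13. The dimmest went from 1449 and 1414 to 627 and 672, and its change of -1.12 ± 0.15 was larger. In each of the 3 probe sets both spheroid arrays lay below both monolayer arrays.

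MTHFD2 oxidises methylene-tetrahydrofolate in mitochondria and is known for its high expression in tumours. Its bright probe set had signals of 22190 and 19472 in monolayers and of 14601 and 11476 in spheroids. The log2 change was -0.60 in wt and -0.76 in wt/GFP, and -0.68 ± 0.12 in the fit (95% interval -0.94 to -0.43, adjusted p = 3.86e-05). Without the wt/GFP spheroid array the change was -0.51, with adjusted p = 0.0806. The second probe set, with 528 and 557 in monolayers and 287 and 252 in spheroids, had a change of -0.98 ± 0.19 and was called too. Its ID marks it as able to match other transcripts. The gene table used here lists 7 pseudogenes of MTHFD2, and which transcript fell was not tested.

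MTHFD1L releases formate from formyl-tetrahydrofolate in mitochondria, and ALDH1L2 burns the same folate to carbon dioxide there. None of their 5 probe sets passed the filter, a mean log2 value of 5.48 that stands for a signal of 30.6. The MTHFD1L probe sets had signals from 3.79 to 34.0 over the 4 arrays and those of ALDH1L2 from 2.99 to 53.3. Within ALDH1L2, 2 probe sets were higher and 1 was lower in spheroids in both lines. At these signals neither gene was tested. Another 2 probe sets are annotated to MTHFD1L together with LOC101928195 and LOC100996643, and were bright, but cannot be named for a single gene. The brighter had signals of 5020 and 4821 in monolayers and of 4669 and 5340 in spheroids, which overlap.

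**Figure D2:**
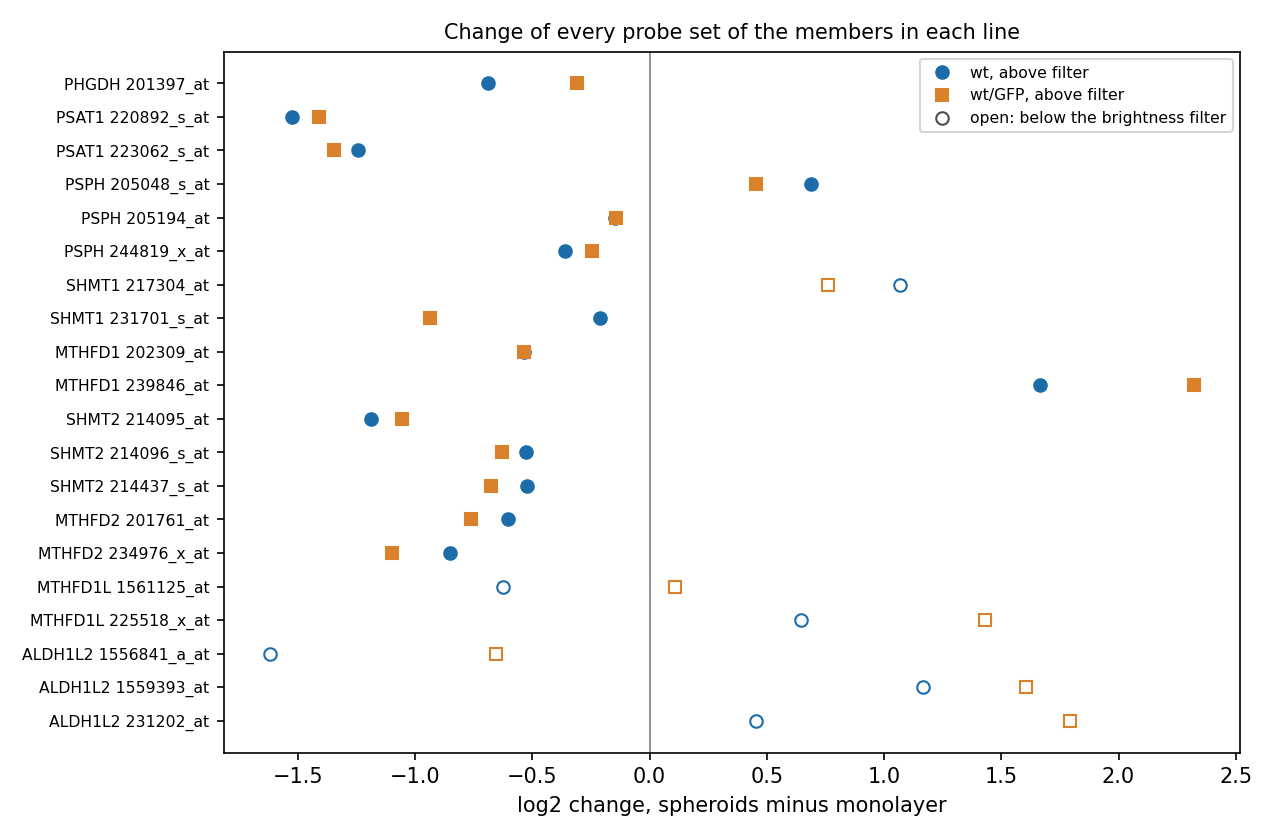
Log2 change from monolayer to spheroids of all 20 probe sets, in wt (circles) and wt/GFP (squares), with open symbols for probe sets below the brightness filter. The SHMT2, PSAT1 and MTHFD2 probe sets all lie left of 0, while those of PSPH and MTHFD1 fall on both sides.

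Of the 14 probe sets of the members that passed the filter, 13 had a mean above it in both culture conditions. Among these 9 were called lower, 1 higher and 3 were not called, and the remaining one is the dim probe set of MTHFD1. Of the 27038 probe sets tested, 16.1% were called lower and 26.6% higher, 42.7% in all.

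The folate enzymes were then compared by compartment, in each line. The mitochondrial enzymes SHMT2 and MTHFD2 had a mean log2 change of -0.56 (wt) and -0.70 (wt/GFP). The cytosolic enzymes SHMT1 and MTHFD1 averaged -0.37 in wt and -0.74 in wt/GFP. The mitochondrial minus cytosolic difference was -0.19 in wt and 0.04 in wt/GFP, -0.08 ± 0.16 (SD, n = 2 lines). Its 95% interval, from the moderated errors of the 4 genes taken as independent, was -0.51 to 0.36. A difference between compartments was not detectable with these arrays, which does not show that the compartments changed alike. The value depended on the choice of probe sets: it was -0.88 with probe sets averaged per gene, which brings in the dim one of MTHFD1, -0.37 without probe sets shared between transcripts and 0.46 without a filter, which brings in MTHFD1L and ALDH1L2. With quantile normalization it was 0.15. A two-sided exact test over 2 against 2 arrays, without their pairing, cannot fall below p = 0.333, and a paired one over 2 lines cannot go lower. None was made, and the compartment difference does not move with a constant shift of an array's log2 values.

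Enzymes of the same step in the 2 compartments were also compared as pairs. The ratio of SHMT2 to SHMT1, on the log2 scale, changed by -0.32 in wt and 0.31 in wt/GFP, in opposite directions, and by -0.00 ± 0.39 in the fit (95% interval -0.81 to 0.80). MTHFD1L was too dim for its ratio to MTHFD1. The ratio of MTHFD2 to MTHFD1, which catalyse the same oxidation in the 2 compartments and were both bright, changed by -0.07 in wt and -0.22 in wt/GFP, and by -0.15 ± 0.17 in the fit (95% interval -0.49 to 0.20). This last pair was chosen after its values were seen.

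**Figure D3:**
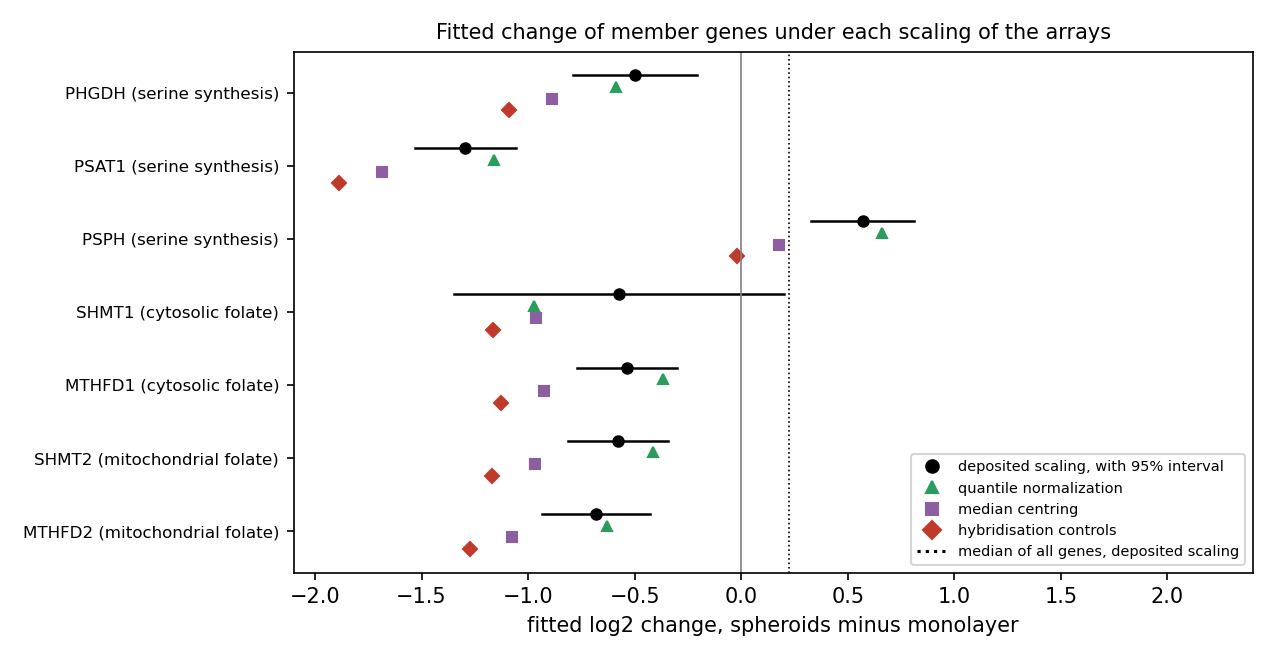
Fitted log2 change of each tested member under 4 scalings of the arrays, with the 95% interval of the deposited scaling as a bar and the median of all genes, 0.23, as a dotted line. PHGDH, PSAT1, MTHFD1, SHMT2 and MTHFD2 lie left of 0 under each scaling, and PSPH crosses it.

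PHGDH, PSAT1, MTHFD1, SHMT2 and MTHFD2 were called lower under all 4 scalings, as were 17.2% of the 14319 genes tested under each. Relative to the median of all genes, the deposited changes were -0.72 for PHGDH, -0.76 for MTHFD1, -0.80 for SHMT2 and -0.91 for MTHFD2. Each of the other 3 scalings lowers the median change of all genes. Quantile normalization still gave smaller falls for PSAT1 (-1.16), MTHFD1 (-0.37), SHMT2 (-0.42) and MTHFD2 (-0.63), and a larger one for PHGDH (-0.59). Median centring and the hybridisation controls gave larger falls for each of these genes. In RNA from whole cultures, fewer cells that express a gene and less RNA per cell cannot be told apart.

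Between the lines none of the 7 members differed past the threshold in limma, and 4 of 14349 genes did, 0.0279% (0.00697% higher and 0.0209% lower in wt/GFP). The largest of the 7 differences were those of PHGDH, 0.30 ± 0.14 higher in wt/GFP, and MTHFD2, -0.27 ± 0.12 (adjusted p = 0.755 and 0.750). At an unadjusted p under 0.05, 2 of the 7 would pass, these same genes, against 6.52% of all genes, and their 95% intervals of 0.01 to 0.59 and -0.52 to -0.01 leave out 0.

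The other genes of the pathway came from 6 lists with 62 genes, of which 52 were tested: 16 fell and 14 rose, or 30.8% and 26.9%. Of all genes tested as deposited, 18.5% were lower and 30.6% higher, the shares to set beside each list below. Under median centring 31 of the 52 fell and 9 of the 52 rose, where 32.3% of all genes were lower and 16.4% higher. After scaling to the hybridisation controls 25 of the 52 fell and 3 of the 52 rose, where 26.2% of all genes were lower and 6.91% higher. Of the 14 that rose as deposited, CBS passed the filter only through its spheroid values. Of 5 other cytosolic and nuclear folate enzymes tested, 3 fell and 0 rose, with a median log2 change of -0.48. TYMS, which makes thymidylate with a carbon from folate, fell by 1.30 ± 0.12 log2 units (adjusted p = 1.44e-09). GART, an enzyme of purine synthesis that takes up formyl groups, fell by 0.64 ± 0.12, though 2 of its 6 other probe sets had the opposite sign, 1 of them past the threshold. ATIC, which adds the second formyl group to the purine ring, fell by 0.31 ± 0.12, and was not called under every scaling. TYMS and GART were called lower under all 4.

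Of 9 other mitochondrial folate and glycine cleavage genes tested, 2 fell, 1 rose and 6 were not called, with a median of -0.25. SLC25A32, the carrier that brings folate into mitochondria, fell by 0.57 ± 0.11 (adjusted p = 0.000132). DLD, the dihydrolipoamide dehydrogenase shared by glycine cleavage and the pyruvate dehydrogenase complex, fell by 0.42 ± 0.12. AMT, which hands the glycine carbon to folate, rose by 1.87 ± 0.27 (adjusted p = 1.36e-06), from log2 values of 6.48 and 7.13 in monolayers to 8.61 and 8.73 in spheroids. SLC25A32, DLD and AMT kept their calls under all 4 scalings.

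Folate uptake genes went both ways: of 5 tested, 2 fell and 2 rose, with a median of -0.01. SLC19A1, the reduced folate carrier, fell by 1.46 ± 0.13 (adjusted p = 5.18e-10), and its 4 other probe sets had the same sign. FPGS, which adds the glutamate tail that keeps folate in the cell, fell by 1.05 ± 0.20. FOLR1, a folate receptor, rose by 0.91 ± 0.12, and SLC46A1, the proton-coupled folate transporter, rose by 0.92 ± 0.19, though 1 of its 2 other probe sets had the opposite sign. The falls of SLC19A1 and FPGS were called under all 4 scalings and the rises were not.

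**Figure D4:**
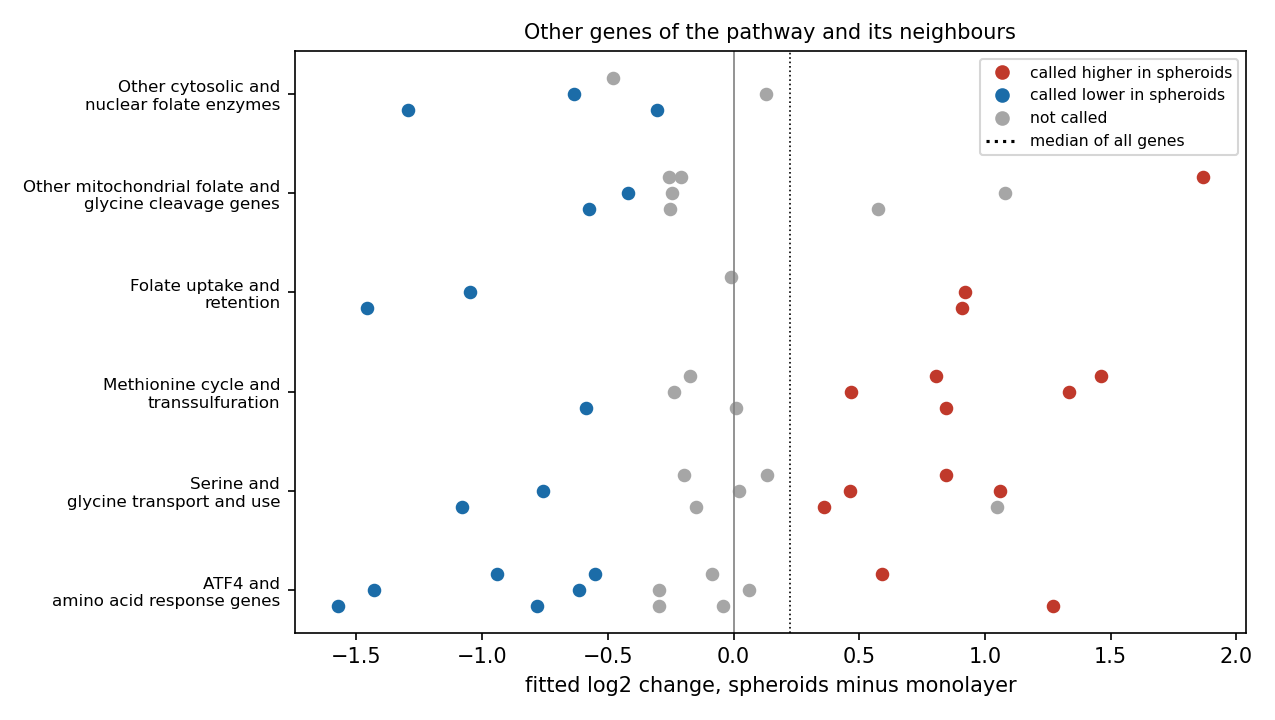
Fitted log2 change of each tested gene of the 6 other lists, coloured by its call, with the median of all genes, 0.23, as a dotted line; the small vertical offsets only separate points. Of the 14 folate enzymes and glycine cleavage genes outside the members, 10 lie left of 0 and 4, AMT, DMGDH, GLDC and ALDH1L1, right of it, and genes of the methionine cycle and transsulfuration mostly right of 0. DMGDH, CBS and SLC6A9 passed the brightness filter only through their spheroid values, so their place right of 0 is given as a description.

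Of 9 genes of the methionine cycle and transsulfuration tested, 5 rose, 1 fell and 3 were not called, and the median of 0.47 turned to -0.13 after scaling to the hybridisation controls. CTH, which splits cystathionine to cysteine, rose by 1.46 ± 0.13 (adjusted p = 4.29e-10) under all 4 scalings. CBS, which joins serine to homocysteine, is 1 of the 5 but passed the filter only through its spheroid values, with log2 values of 5.25 and 5.06 in monolayers and 6.81 and 6.16 in spheroids. Without it 4 of 8 rose. AHCYL1, a relative of the S-adenosylhomocysteine hydrolase, rose by 0.84 ± 0.12, and MTAP, which salvages methionine and adenine, by 0.80 ± 0.12, with 1 of its 5 other probe sets of opposite sign. AHCYL1 and MTAP were called under each scaling except that to the hybridisation controls, and CBS was called under none of the other 3.

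Serine and glycine transport and use had 11 genes tested, of which 4 rose and 2 fell, with a median of 0.13 that became -0.46 after scaling to the hybridisation controls. SLC1A5, a transporter of neutral amino acids including glutamine and serine, fell by 0.76 ± 0.16. SLC1A4, its relative, fell by 1.08 ± 0.35, but 2 of its 3 other probe sets had the opposite sign. SERINC1, a membrane protein named for serine incorporation, rose by 1.06 ± 0.11. SRR, which turns L-serine to D-serine, rose by 0.85 ± 0.18, while its 3 other probe sets all had the opposite sign, 1 past the threshold. With the hybridisation controls SERINC1 and SRR lost their calls (0.47 and 0.25, adjusted p = 0.261 and 0.578).

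Of the genes of ATF4 and the amino acid response, 13 were tested: 6 fell, 2 rose and 5 were not called, with a median of -0.30. SLC7A5 and SLC3A2, the light and heavy chain of a transporter of large neutral amino acids, fell by 1.57 ± 0.11 and 1.43 ± 0.12. ASNS, asparagine synthetase, fell by 0.94 ± 0.12 (adjusted p = 2.03e-07). CEBPB, a transcription factor that pairs with ATF4, rose by 1.27 ± 0.12. These 4 were called under all 4 scalings. The transcript of ATF4 itself, named after its value was seen, had a change of -0.09 ± 0.12 (95% interval -0.34 to 0.17).

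Promoter sequences were read for the members because several fell together. The RefSeq table for GRCh38.p14 lists windows for 6 of the 9 members, 250 bases before to 50 after a start, and none for PSPH, SHMT2 and ALDH1L2. Shown are the 250 bases before the start, 5' to 3' on the gene's strand, for the member with the largest change and for the cytosolic and mitochondrial enzymes of the same oxidation. Capitals mark matches to ACGTG or GCGTG, the core of hypoxia response elements, or to CACGTG, the E-box bound by MYC, on either strand, and the PSAT1 stretch holds no match. The windows lie on the plus strand at chr9:78296875-78297124, chr14:64388103-64388352 and chr2:74198365-74198614.
PSAT1: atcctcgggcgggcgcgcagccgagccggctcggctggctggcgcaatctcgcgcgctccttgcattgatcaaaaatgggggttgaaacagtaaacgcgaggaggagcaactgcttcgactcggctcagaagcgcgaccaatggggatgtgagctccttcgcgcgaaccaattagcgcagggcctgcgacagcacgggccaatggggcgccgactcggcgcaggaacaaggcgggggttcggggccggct
MTHFD1: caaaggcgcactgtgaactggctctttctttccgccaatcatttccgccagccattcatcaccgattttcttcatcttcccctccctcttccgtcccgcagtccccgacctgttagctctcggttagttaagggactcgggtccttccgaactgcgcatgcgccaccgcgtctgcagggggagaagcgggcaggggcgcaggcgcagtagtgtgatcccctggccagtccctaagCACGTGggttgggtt
MTHFD2: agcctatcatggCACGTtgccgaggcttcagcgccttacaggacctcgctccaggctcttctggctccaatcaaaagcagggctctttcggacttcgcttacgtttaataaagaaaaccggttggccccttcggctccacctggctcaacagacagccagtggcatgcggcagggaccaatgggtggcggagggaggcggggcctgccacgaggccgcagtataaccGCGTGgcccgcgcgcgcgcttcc

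Over the full 300 bases MTHFD1 held the E-box CACGTG with its first base 15 bases before the start, a motif present in 7.26% of all 35116 windows. It contains ACGTG, which 21.4% of windows hold, on both strands. MTHFD2 held ACGTG at 238 bases before the start, read on the opposite strand, GCGTG (36.5% of windows) at 23 bases before it, and TGACNNNGC, the core of antioxidant response elements (13.3%), on the opposite strand at position 7, the start being the first base. PSAT1 held GCGTG on the opposite strand at position 39 and none of the others. TGATGNAAT, the composite C/EBP-ATF element bound by ATF4, was found in none of the windows of PHGDH, PSAT1, SHMT1, MTHFD1 and MTHFD2. It is in 0.991% of all windows, and 3 of the 4 overlapping or alternative windows of MTHFD1L held it, as TGATGCAAT, beside an E-box. PHGDH and SHMT1 had none of the 5 motifs. A match describes letters only, and a missing match says nothing beyond this window.

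The genes with the closest profile were found by Euclidean distance between log2 values centred on each gene's own mean, over the 4 arrays and all genes tested. PSME4, LY6H and SAXO4 were closest to PHGDH, at distances of 0.05, 0.07 and 0.07, and their changes ranged from -0.54 to -0.46. URB2, FKBP3 and UCHL5 were closest to MTHFD2, at 0.02, 0.04 and 0.04, with changes from -0.68 to -0.65. These like changes follow from the choice by distance over 4 arrays, and a link between the genes was not tested.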

How the data were processed

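The deposited table holds 1 column of intensities for each of 4 arrays, on a linear scale, made by the authors with MAS5 per the submitters' processing notes, which give no version or settings. The columns share a trimmed mean of 500.1, so a change in total RNA per cell would not show. Probe sets were named from the platform annotation, which can be old, with symbols updated by gene identifier in a GRCh38.p14 RefSeq table: 41091 had 1 symbol, 1801 several and 11721 none. Those with several were passed over, 5 of them annotated to a member among others (1 for PHGDH, 2 for SHMT1, 2 for MTHFD1L).

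Signals became log2(signal + 14.0), the 25th percentile of all values. Probe sets with a mean above the 40th percentile, 5.48, were kept (32768), and the brightest per gene was tested, 14349 in all. limma 3.58.1 in R 4.3.3 fitted terms for culture condition and for cell line, with trended moderation, on 1 residual and 25.9 prior degrees of freedom, so each SE rests mainly on other genes of like brightness. Nothing says the arrays came from separate cultures, so p-values measure only the disagreement between the changes of the 2 lines, moderated across genes. The pairing comes from the cell line in the labels; across genes, the line difference in monolayers correlated with that in spheroids at 0.00684. Adjusted p-values are two-sided Benjamini-Hochberg values over all genes tested. The fit was tested on simulated data with 200 of 14349 genes changed, where 69% of 2-fold changes were recovered and 9 unchanged genes were called. The simulated noise was independent between arrays, with no difference between lines. In the data 49.1% of genes were called, so these rates may not hold there. Changes smaller than 2-fold were not simulated.

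All members were named, with up to 4 called genes of largest change in each other list, and the 3 closest profiles to PHGDH and MTHFD2. Members and lists were chosen with earlier results of these data known. Alternatives were other scalings, pseudocounts, filters, probe set rules and moderation, no cell line term, leaving out each array, and, chosen after seeing the data, including probe sets of several symbols. Protein sequences were not used here.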

Additional observations from a re-analysis of the deposited data

Results flagged for a closer look

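Some values moved in opposite directions in the 2 lines, which was not tested, since each line had 1 array per condition. The mitochondrial minus cytosolic difference was -0.19 for wt against 0.041 for wt/GFP. The change of the SHMT2 to SHMT1 ratio was -0.32 for wt against 0.31 for wt/GFP. A dim MTHFD1L probe set changed sign between the lines, with -0.63 (wt) and 0.11 (wt/GFP). The bright probe set annotated to MTHFD1L with LOC101928195 and LOC100996643 had -0.10 and 0.15.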

How the results depend on the processing

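Without the trend in moderation only PSAT1 of the members was called: 1 fell and 0 rose. Adjusted p ranged from 0.0556 for MTHFD2 to 0.122 for PHGDH among those lost, and 6 of the 52 other pathway genes fell. Of all genes tested there, 8.18% were lower and 18.4% higher. Members called higher numbered 0 after median centring, after scaling to the hybridisation controls and without probe sets shared between transcripts, and 2 with every probe set alone, 1 of them MTHFD1 through its dim probe set. Of all genes or probe sets tested, 16.4%, 6.91%, 29.4% and 26.6% were higher under these settings, in that order. Of the 52 other pathway genes, 31 and 25 fell and 9 and 3 rose under the first 2 of these settings. Under the third, 10 other pathway genes fell, and 9 rose with probe sets averaged per gene. Of all genes tested, 32.3%, 26.2% and 14.9% were lower under the first 3 settings, and 26% were higher with probe sets averaged per gene. PSPH was -0.15 without shared probe sets and -0.022 after scaling to the hybridisation controls. MTHFD1 was 0.73 with the mean of its probe sets, which includes the dim one, and was then called higher. The mitochondrial minus cytosolic difference was 0.15 after quantile normalization, 0.46 without a filter, -0.88 with the mean of probe sets, -0.37 without shared ones and 0.11 with probe sets of several symbols. The change of the SHMT2 to SHMT1 ratio was 0.56 after quantile normalization. With no replicate block (no cell line term), 5 members fell and 1 rose, and no member's call changed. Of all genes tested there, 17.5% were lower and 28.7% higher. Leaving out each array, without the cell line term, kept the sign of each tested member's change and left the compartment difference between -0.23 and 0.08. In fits of all 4 arrays, counts of members called lower were 4 to 6 under every alternative except the missing trend. The share of all genes called lower ranged from 12.0% without a filter to 32.3% with median centring over the same fits. The dim probe sets of MTHFD1L and ALDH1L2, near the low end of all signals, give no usable change.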

Other observations

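With probe sets of several symbols included, the probe set of SHMT1 with MIR6778 was the brightest for that gene, with signals of 1506 and 1440 in monolayers and 893 and 1186 in spheroids, a log2 change of -0.51 ± 0.14 (adjusted p = 0.00330). The one annotated to PHGDH with MZT2A and MZT2B had 6316 and 6298 in monolayers and 5794 and 6127 in spheroids, a change of -0.08 ± 0.11 (adjusted p = 0.588). The probe set of MTHFD1L with LOC101928195 and LOC100996643 had a change of 0.02 ± 0.12 (95% interval -0.22 to 0.26). Its change exceeded that of MTHFD1 by 0.43 in wt and 0.68 in wt/GFP, 0.56 ± 0.16 in the fit, whereas the second probe set annotated to the same 3 symbols fell from 739 and 904 to 546 and 407. These probe sets were looked at after the data were seen, and which of the annotated genes each one measures was not tested.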
